A study of Rattus norvegicus with 24 samples.

Results

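Transcripts of 10 genes used as markers of tubular injury and dedifferentiation were followed in the kidneys of 24 male PKD/Mhm (Cy/+) rats. The genes were Havcr1, Lcn2, Spp1, Clu, Vcam1, Krt8, Krt18, Krt19, Vim and Sox9. They were chosen by name, with earlier results of these data known, and their rows were found by Entrez gene identifier among the 17334 genes listed for each animal. All 10 passed the filter on low counts that left 12778 genes for testing.

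When a tubule is injured or stretched by a growing cyst, its epithelial cells lose transport functions and take up a simpler, dedifferentiated state. Such cells shed or secrete proteins into the tubule (the products of Havcr1, Lcn2, Spp1 and Clu), show adhesion molecules such as Vcam1, fill with intermediate filaments (keratins and vimentin) and switch on Sox9, a transcription factor of nephron development and repair. Several of these genes are also used by other cells, Vcam1 by endothelium and Vim by fibroblasts and leukocytes, for example. In bulk kidney RNA, fewer cells of a type and less RNA per cell cannot be told apart.

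All 24 rats were labelled as heterozygous for the Cy mutation, which causes cystic kidney disease, and were 8 months old when the left kidney was taken. There were 6 animals in each of 4 groups. The Ctrl group was untreated. Human skin-derived stromal cells positive for ABCB5 were given to the group i.p. ABCB5+ and to the group i.v. ABCB5+, injected into the peritoneum or a vein once a month for 6 months. The CoCM group received, over the same period, medium conditioned by a co-culture of ABCB5+ cells with macrophages derived from THP-1 cells (a human monocytic leukaemia line) under IFN-γ and LPS. The descriptions of the study differ on whether this medium was given i.p. or i.v. No vehicle or unconditioned-medium group and no non-cystic rats were analysed here. Cystic rats were told from non-cystic ones by abdominal palpation, according to the study's methods, and the genotype was not tested here. Estimated counts totalled 9304601 to 14125442 per animal, and all markers of the proximal tubule (6 of 6), the thick ascending limb (5 of 5) and podocytes (5 of 5) were counted in every sample, which fits the labelled tissue, kidney.

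4 animals stood apart from the other 20. On the first principal component of 12768 tested genes (the 10 markers left out), which held 56.2% of the variance, animals 36 and 37 (i.v. ABCB5+), 38 (i.p. ABCB5+) and 39 (CoCM) scored -97.1 to -80.5, against -11.6 to 52.9 in the others. The gap took up 45.9% of the whole range. Genes with a count numbered 13535 to 13769 in these 4 animals and 13883 to 14149 in the others. Animals 38 and 39 had the smallest libraries (9304601 and 9759917 counts), while animals 36 and 37 had 12362433 and 13285886. None of the 4 was a Ctrl animal, and the labels do not say what the animal numbers stand for. Results are therefore given with and without these 4 animals.

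The sequence upstream of 4 of the genes is shown because Havcr1, Lcn2 and Spp1 had the widest ranges over the 24 animals and Vcam1 the closest tie to leukocyte markers. Each line holds the 250 bases before the annotated start (RefSeq, assembly GRCr8, written 5′ to 3′ on the gene's strand), and capitals mark motif matches. RefSeq windows were at hand for 7 of the 10 genes, not for Clu, Krt19 and Sox9.
Spp1 (chr14:5619805-5620054, minus strand): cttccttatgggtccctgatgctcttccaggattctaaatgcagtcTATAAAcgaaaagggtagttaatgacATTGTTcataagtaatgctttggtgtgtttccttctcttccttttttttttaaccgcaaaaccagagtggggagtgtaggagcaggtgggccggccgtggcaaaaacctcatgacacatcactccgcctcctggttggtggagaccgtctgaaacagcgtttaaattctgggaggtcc
Lcn2 (chr3:36081781-36082030, minus strand): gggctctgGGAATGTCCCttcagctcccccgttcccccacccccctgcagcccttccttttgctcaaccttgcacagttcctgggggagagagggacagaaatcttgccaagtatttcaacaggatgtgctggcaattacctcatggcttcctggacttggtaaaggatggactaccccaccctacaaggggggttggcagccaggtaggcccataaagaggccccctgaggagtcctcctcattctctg
Havcr1 (chr10:31629528-31629777, plus strand): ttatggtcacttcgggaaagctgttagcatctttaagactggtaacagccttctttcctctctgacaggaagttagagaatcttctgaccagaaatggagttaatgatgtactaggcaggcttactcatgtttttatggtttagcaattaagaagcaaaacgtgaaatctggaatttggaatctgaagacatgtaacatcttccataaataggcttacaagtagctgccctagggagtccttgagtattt
Vcam1 (chr2:206742784-206743033, minus strand): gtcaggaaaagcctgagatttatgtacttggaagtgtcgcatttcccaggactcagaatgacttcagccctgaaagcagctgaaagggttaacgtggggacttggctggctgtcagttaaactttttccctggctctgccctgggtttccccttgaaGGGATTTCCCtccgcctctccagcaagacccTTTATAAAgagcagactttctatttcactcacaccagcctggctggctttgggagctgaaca

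Motifs were searched on both strands, with overlapping matches kept. The letters TATAAA were found once in Spp1, from -204 relative to the start, and in Vcam1 as a pair of overlapping matches on opposite strands from -60 and -62. The same letters stood in the Krt8 and Vim windows and in 12.9% of the 33469 windows of all genes. The NF-kappa B consensus was matched in Vcam1 at -93 (on both strands), in Lcn2 at -242 and in Vim at -193, against 3.54% of all windows. The Sox letters AACAAT were matched in Spp1 at -178, against 10.3% of all windows. Neither the AP-1 letters TGANTCA (6.34% of all windows) nor the STAT letters TTCNNNGAA (7.67%) were found in any of the 7 windows, and Havcr1 and Krt18 held none of the 5 motifs. A match describes letters only.

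Levels of different genes were compared as TPM (transcript abundance scaled to length and library total). Spp1, which encodes the secreted integrin ligand osteopontin, was by far the most abundant, with a median of 8181.9 TPM over 24 animals. Clu (the secreted chaperone clusterin) followed with 1233.4 TPM, Vim with 518.7 and Krt8 with 259.8. Lcn2, whose product binds iron-carrying siderophores, had a median of 249.7 TPM, Krt19 of 101.5, Krt18 of 68.3, Havcr1 of 65.6, Sox9 of 60.3 and Vcam1 of 35.1.

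**Figure D1:**
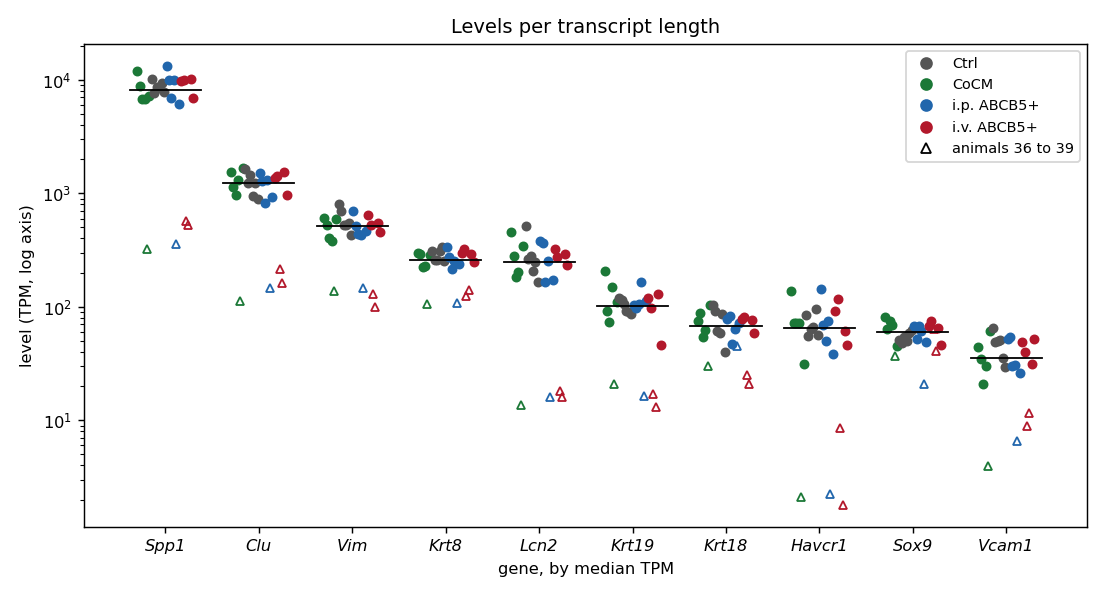
Level of each gene in TPM (log axis) in 24 kidneys, coloured by group, with the median over all animals as a bar and animals 36 to 39 as open triangles. Spp1 ranked highest in every animal, at 326.3 to 13258.5 TPM.

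In the 20 other animals, the TPM ranges of Spp1, Clu, Vim and Krt8 did not overlap from each gene to the next. Krt8 was above Lcn2 in 12 of these 20 animals, Krt18 above Havcr1 in 8, Havcr1 above Sox9 in 13 and Sox9 above Vcam1 in 14, so the order of those neighbours was not fixed. Spp1 kept rank 1 in all 24 animals, whereas Havcr1 took ranks 6 to 10.

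Levels of a single gene are given as CPM (counts divided by TMM-scaled library size). Havcr1 encodes kidney injury molecule 1, a phosphatidylserine receptor that injured proximal tubule cells shed. Havcr1 stood at 91.1, 119.8 and 166.8 CPM in Ctrl (lowest, median, highest), at 4.32, 129.2 and 272.6 in CoCM kidneys, at 4.85, 101.4 and 224.9 in i.p. ABCB5+ kidneys and at 4.18, 90.4 and 190.9 in i.v. ABCB5+. The 4 groups overlapped, and both the highest and the lowest values lay in treated animals. Animals 36 to 39 held 17.5, 4.18, 4.85 and 4.32 CPM, below the 57.2 to 272.6 CPM of the other 20.

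Lcn2 showed the same layout. It stood at 81.6, 117.5 and 291.5 CPM in Ctrl, at 7.97, 126.3 and 258.6 in CoCM kidneys, at 9.93, 117.2 and 172.7 in i.p. ABCB5+ kidneys and at 10.5, 123.1 and 172.6 in i.v. ABCB5+. Ctrl animal 1 was the highest and CoCM animal 39 the lowest. Animals 36 to 39 lay between 7.97 and 10.7 CPM and the other 20 at 81.6 or more.

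Spp1 ranged from 6967.0 to 11041.0 CPM in Ctrl, with a median of 8264.7. Its medians in CoCM kidneys, i.p. ABCB5+ and i.v. ABCB5+ were 7157.6, 7960.8 and 7843.6 CPM, and the lowest animals there held 370.1, 425.8 and 640.5 CPM. The highest in each of these groups were 13004.0, 11554.6 and 9959.7 CPM. Outside animals 36 to 39 Spp1 was among the steadier of these genes, with a highest value 1.97 times the lowest, against 35.1 times over all 24.

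Clu ranged from 1103.6 to 2298.5 CPM in Ctrl with a median of 1411.0. Its medians were 1587.2 in CoCM kidneys, 1409.9 in i.p. ABCB5+ kidneys and 1427.3 CPM in i.v. ABCB5+. All 4 groups overlapped, and animals 36 to 39 (164.4 to 317.8 CPM) lay below the other 20 (1067.9 to 2298.5 CPM).

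**Figure D2:**
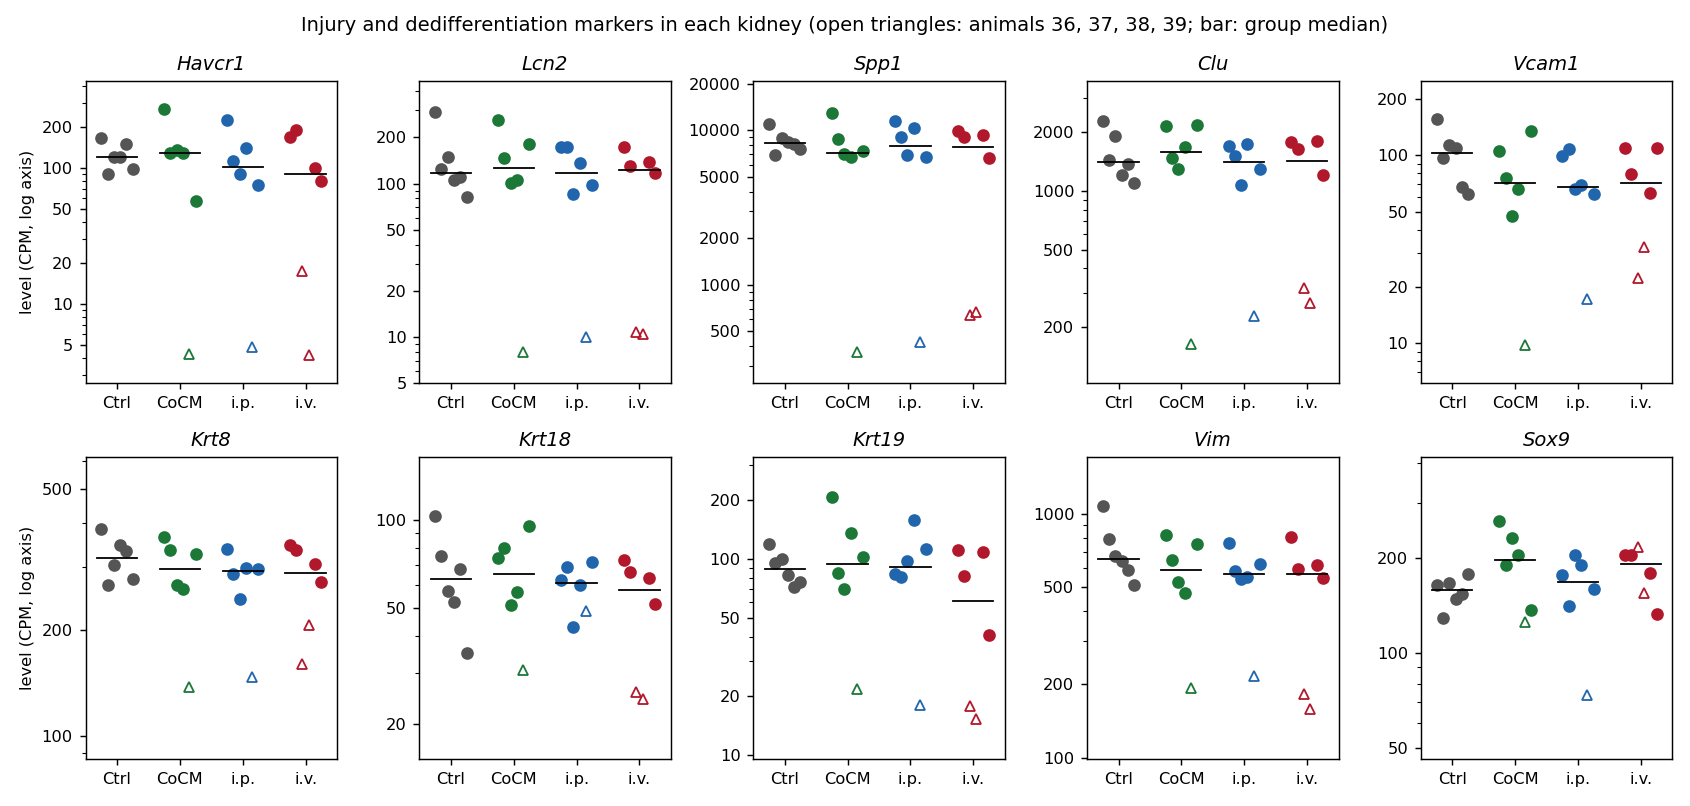
Level of each gene in CPM (log axis) in each of 6 animals per group, with the group median as a bar and animals 36 to 39 as open triangles. For 8 of 10 genes the 4 triangles lie below all 20 filled points. For Krt18 and Sox9 they do not.

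Vcam1, the adhesion molecule that binds leukocyte integrins, had medians of 103.3 CPM in Ctrl, 71.0 in CoCM kidneys, 67.8 in i.p. ABCB5+ kidneys and 71.5 in i.v. ABCB5+. Its range was 62.4 to 155.2 CPM in Ctrl and 9.79 to 135.4, 17.2 to 107.4 and 22.2 to 109.1 CPM in the treated groups in that order. The treated medians were the lower ones, but the ranges overlapped. Animals 36 to 39 lay between 9.79 and 32.4 CPM, against 47.7 to 155.2 CPM in the others.

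The keratins form the filaments of simple epithelia, in which a type II chain (Krt8) pairs with a type I chain (Krt18 or Krt19). Krt8 was steady, at 244.6 to 385.0 CPM in the other 20 animals and 138.3 to 206.0 CPM in animals 36 to 39. Its medians were 319.2 CPM in Ctrl, 297.4 in CoCM kidneys, 292.4 in i.p. ABCB5+ kidneys and 289.5 in i.v. ABCB5+. Krt19, a keratin of ducts and of cells in transition, was at 40.8 to 207.6 CPM and 15.2 to 21.6 CPM in the same 2 sets, with group medians of 88.9, 93.6, 90.4 and 61.2 CPM. Krt18 overlapped between them, at 35 to 102.7 CPM and 24.4 to 48.9 CPM, and Ctrl animal 24 (35 CPM) was lower than i.p. ABCB5+ animal 38 (48.9 CPM). Its group medians were 62.7, 65.3, 61.0 and 57.5 CPM.

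The log2 ratio of Krt8 to Krt18 in TPM was 1.96 ± 0.35 (SD, n = 24 animals) and ranged from 1.26 to 2.74. By group it was 2.03 ± 0.45 in Ctrl, 1.83 ± 0.21 in CoCM kidneys, 1.83 ± 0.34 in i.p. ABCB5+ kidneys and 2.17 ± 0.31 in i.v. ABCB5+ (SD, n = 6 each), which overlapped. Both ends of the range came from animals 38 (1.26) and 37 (2.74). RefSeq lists 7 like-named copies of Krt18, 3 of Havcr1 and 1 of Krt8, none of them among the genes listed for these animals, so reads shared with such copies make these levels less certain. Clu overlaps Scara3 and Ppp2r1a-ps1, and Krt19 overlaps LOC102554449, and how the counting treated strand is not given in the sources used here.

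Vim, the intermediate filament of mesenchymal and dedifferentiated cells, ranged from 511.8 to 1073.5 CPM in Ctrl with a median of 655.4. Medians were 586.6 in CoCM kidneys, 564.7 in i.p. ABCB5+ kidneys and 568.3 CPM in i.v. ABCB5+. Animals 36 to 39 lay between 157.9 and 216.8 CPM, below all others (473.8 to 1073.5 CPM).

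Sox9 followed another layout. It ranged from 129.0 to 178.2 CPM in Ctrl (median 158.9), between 125.3 and 262.0 in CoCM (197.2), between 73.8 and 204.3 in i.p. ABCB5+ (168.1) and between 133.2 and 217.6 CPM in i.v. ABCB5+ (192.0). Animals 38 and 39 held the lowest levels of all, while animal 36 (217.6 CPM) was the highest of the i.v. ABCB5+ group. The groups overlapped.

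8 of the 10 genes thus had all of animals 36 to 39 below the range of the other 20, whereas 14.2% of the 12778 tested genes lay below and 10% above in this way. In those 4 animals, the summed level of 6 proximal tubule markers was 6555.1 to 11171.0 CPM, against 1643.9 to 5914.1 CPM in the others. The sums of 7 fibroblast and pericyte markers (206.8 to 654.0 CPM against 834.1 to 3557.9), 8 macrophage markers (73.7 to 209.0 against 337.1 to 1006.7) and 6 lymphocyte markers (9.67 to 29.6 against 82.2 to 198.5) were lower. No marker of these lists was at 0 in all samples. The part of cell content in the marker levels was not tested.

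The spread between animals of the same group was large for most of these genes. The within-group SD of log2 CPM was 1.8 for Havcr1, 1.62 for Spp1, 1.55 for Lcn2 and 1.13 for Clu, against 0.3 for the median tested gene. Without animals 36 to 39 these values were 0.6, 0.31, 0.52 and 0.34, against 0.23. Within the Ctrl group, which held none of the 4, the SD was 0.34 for Havcr1, 0.23 for Spp1, 0.63 for Lcn2 and 0.4 for Clu. Sox9 had the smallest within-group SD of the 10 with all animals (0.38) and Krt8 without the 4 (0.19).

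The question for the treatments was whether conditioned medium or cells, by either route, moved these markers away from the untreated group. No difference passed the test. Of the 10 genes, 0 had an adjusted p under 0.05 in edgeR in CoCM against Ctrl, beside 0.00783% of all tested genes, and 0 in i.p. ABCB5+ kidneys and in i.v. ABCB5+ against Ctrl, beside 0.0% each. At an unadjusted p under 0.05 the counts were again 0, 0 and 0 of 10, beside 11.9%, 1.77% and 5.78% of all genes. DESeq2 and voom also called 0 of 10 in each of the 3 comparisons. The smallest adjusted p among the 10 (edgeR) was 0.524 in CoCM kidneys, 0.978 in i.p. ABCB5+ kidneys and 0.674 in i.v. ABCB5+.

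The fitted changes were mostly downward. In either direction, 1, 3 and 6 of the 10 were larger than their SE in CoCM, i.p. and i.v. kidneys against Ctrl, but 0 were larger than 2 SE. The 1 in CoCM was Sox9, which was upward (0.29 ± 0.20). Sox9 was also among the 6 in i.v. ABCB5+ and again upward (0.22 ± 0.20). The median log2 fold change of the 10 genes was -0.08 in CoCM kidneys, -0.22 in i.p. ABCB5+ kidneys and -0.45 in i.v. ABCB5+, with 8, 8 and 9 genes below 0, and the median of all tested genes was 0.009, 0.004 and 0.013. Without animals 36 to 39 the medians were 0.14, -0.08 and -0.03, with 3, 6 and 6 genes below 0. At an unadjusted p under 0.05, edgeR then gave 1, 0 and 0 of 10 genes, beside 16.9%, 1.39% and 1.23% of 12884 genes tested. The 3 comparisons share the same Ctrl animals. The i.v. ABCB5+ group held 2 of the 4 animals and the others 1 each.

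**Figure D3:**
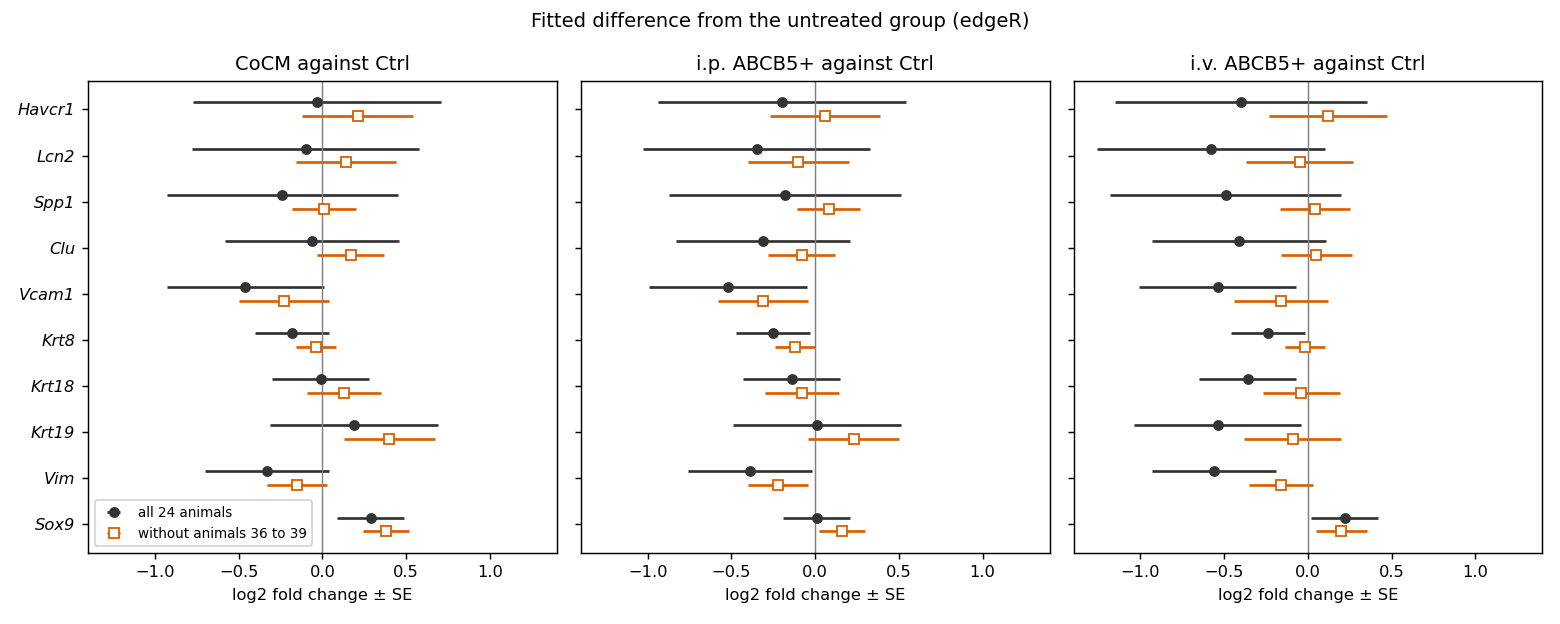
Fitted log2 fold change ± SE (edgeR) of each gene in the 3 treated groups against Ctrl, with all 24 animals (filled circles) and without animals 36 to 39 (open squares). Most circles lie to the left of 0, and the squares have narrower bars. The squares lie farther from 0 than the circles for 6 of 10 genes in CoCM (median from -0.08 to 0.14), for 2 in i.p. ABCB5+ (-0.22 to -0.08) and for 0 in i.v. ABCB5+ (-0.45 to -0.03).

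The width of these errors differed between genes. For Havcr1 the log2 fold change was -0.03 ± 0.74 (SE) in CoCM kidneys, -0.20 ± 0.74 in i.p. ABCB5+ kidneys and -0.40 ± 0.75 in i.v. ABCB5+. Without animals 36 to 39 it was 0.21 ± 0.33, 0.06 ± 0.33 and 0.12 ± 0.35. Spp1 changed sign in the same way in all 3 comparisons, from -0.24, -0.18 and -0.49 (SE 0.69 each) to 0.01 ± 0.19, 0.08 ± 0.19 and 0.04 ± 0.21.

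Vcam1, Vim and Krt8 were fitted below 0 in all 3 comparisons under both choices. Vcam1 was at -0.46 ± 0.47, -0.52 ± 0.47 and -0.54 ± 0.47 with all animals and at -0.23 ± 0.27, -0.31 ± 0.27 and -0.16 ± 0.28 without the 4. Vim was at -0.33, -0.39 and -0.56 (SE 0.37 each) and then at -0.15 ± 0.18, -0.22 ± 0.18 and -0.16 ± 0.19. These differences did not exceed the spread between animals.

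Sox9 was the gene with the smallest unadjusted p in CoCM against Ctrl. Its log2 fold change there was 0.29 ± 0.20 (edgeR adjusted p = 0.524). Without animals 36 to 39 it was 0.38 ± 0.14, with an unadjusted p of 0.0162 and an edgeR adjusted p of 0.238, where 16.9% of all genes had an unadjusted p under 0.05. Mean levels were then 205.0 ± 46.9 CPM in 5 CoCM animals and 156.8 ± 17.2 CPM in 6 Ctrl animals (SD). Krt19 was at 0.19 ± 0.50 in CoCM with all animals and 0.40 ± 0.27 without the 4 (edgeR adjusted p = 0.443).

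Between the routes, 0 of 10 genes differed in i.p. against i.v. ABCB5+ by edgeR, beside 0.0% of all genes at the adjusted threshold and 2.14% at an unadjusted p under 0.05, where the 10 genes also gave 0. CoCM against the mean of both ABCB5+ groups gave 0 of 10 by each count, beside 0.0% and 7.0%. The test for any difference among the 4 groups gave 0 of 10 by each, beside 0.0% and 4.71%. Without animals 36 to 39 these 3 comparisons each gave 0 of 10 at an unadjusted p under 0.05, beside 1.13%, 13.9% and 6.23%. The groups did not separate for any of the 10 genes in CoCM kidneys, i.p. ABCB5+ or i.v. ABCB5+ against Ctrl or between routes, beside 1.38%, 0.047%, 0.11% and 0.0626% of all genes with non-overlapping groups.

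Co-variation was examined over the 20 animals other than 36 to 39, because a pooled correlation over 2 separate sets would reflect the gap between them. Pearson's r and Spearman's rho of log2 CPM were computed for the 45 pairs, each with a two-sided permutation p adjusted over the 45. In 21 pairs both passed at 0.05 with a positive sign, and in 0 with a negative sign. The median rho of the 45 pairs was 0.43, while the median rho of each gene with all tested genes lay between -0.06 and 0.02.

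**Figure D4:**
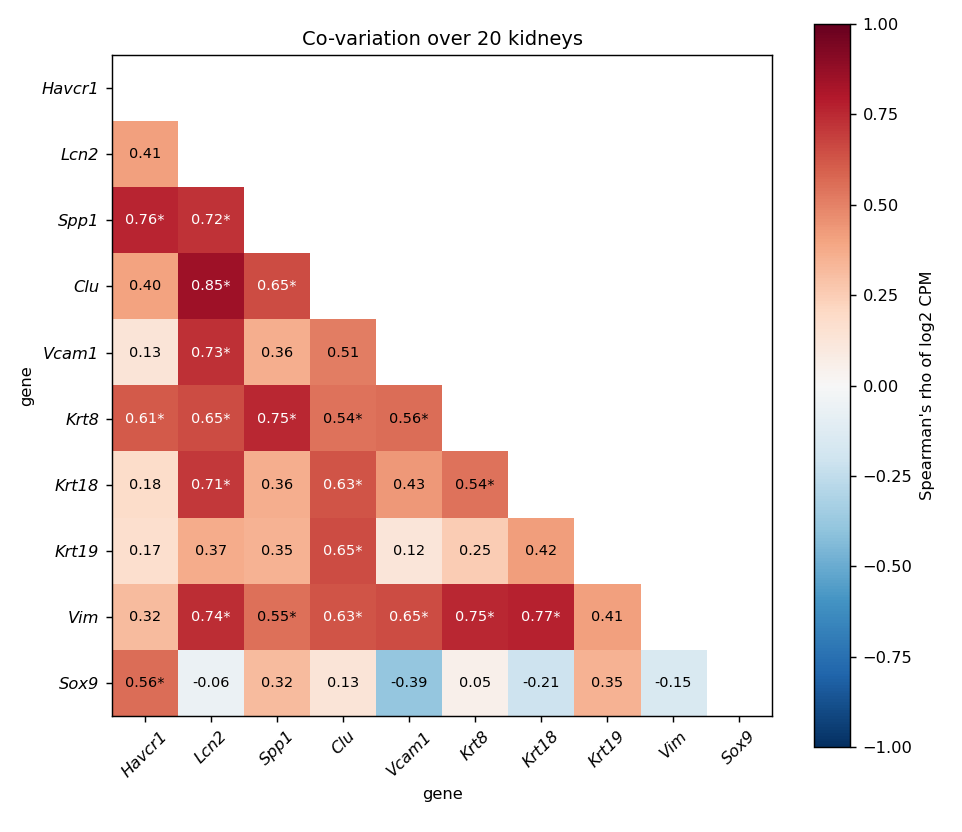
Spearman's rho of log2 CPM over 20 kidneys for each pair of the 10 genes, where an asterisk marks the 21 pairs in which r and rho both passed after adjustment. The values ran from -0.39 (Vcam1 with Sox9) to 0.85 (Lcn2 with Clu).

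Lcn2 and Clu were the closest pair, with r = 0.87 and rho = 0.85 (permutation, adjusted p = 0.000225 and 0.00135). Leaving out the 2 animals farthest from the median of Lcn2 gave r = 0.82. Havcr1 followed Spp1 (r = 0.79, rho = 0.76, permutation adjusted p = 0.000225 and 0.00187, r = 0.75 without the farthest 2) more than it followed Lcn2 (r = 0.47, rho = 0.41, adjusted p = 0.0666 and 0.128), although the difference between these correlations was not tested. Spp1 also went with Krt8 (r = 0.76, rho = 0.75, permutation adjusted p = 0.0009 and 0.00187, r = 0.72 without the farthest 2).

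Krt8 passed with 7 of the 9 other genes, all but Krt19 and Sox9, and Lcn2, Clu and Vim passed with 6 each. Among the filament genes, Krt18 and Vim had r = 0.74 and rho = 0.77 (permutation adjusted p = 0.00095 and 0.00187, r = 0.63 without the farthest 2). Krt8 and Krt18, which pair in the same filament, had r = 0.62 and rho = 0.54 (permutation adjusted p = 0.00969 and 0.0321), and r was 0.44 without the farthest 2.

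Krt19 passed with Clu alone (r = 0.60, rho = 0.65, permutation adjusted p = 0.011 and 0.00931). Sox9 passed with Havcr1 alone (r = 0.62, rho = 0.56, permutation adjusted p = 0.00987 and 0.0281), and r was 0.42 without the farthest 2. Its correlation with Vcam1 was the lowest of the 45 pairs (r = -0.42, rho = -0.39) and did not pass (permutation adjusted p = 0.113 and 0.142). Values centred on each group mean gave 23 passing pairs. In the 14 treated animals alone, 13 pairs passed.

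The same 20 animals were used to set each gene against the summed CPM of 16 lists of markers, mostly of cell types, on the log2 scale. Of 160 relations, 14 passed by r and rho with a positive sign and 9 with a negative sign, after adjustment over the 160. Vcam1 rose and fell with macrophage markers (r = 0.92, rho = 0.90), fibroblast and pericyte markers (r = 0.91, rho = 0.86) and lymphocyte markers (r = 0.90, rho = 0.87), with permutation adjusted p of 0.0004 for each r and 0.000533, 0.000533 and 0.0008 for rho. Without the 2 farthest animals, r was 0.92, 0.85 and 0.91. Vim went with the same macrophage (r = 0.71, rho = 0.69) and fibroblast sums (r = 0.73, rho = 0.65). Lcn2 also passed with the macrophage (r = 0.66, rho = 0.67) and lymphocyte sums (r = 0.56, rho = 0.61). Krt18 (r = 0.58, rho = 0.74) and Krt19 (r = 0.64, rho = 0.64) passed with the sum of inner medulla and thin limb markers. Vcam1 ran against the thick ascending limb sum (r = -0.78, rho = -0.74, permutation adjusted p = 0.00416 and 0.0096).

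**Figure D5:**
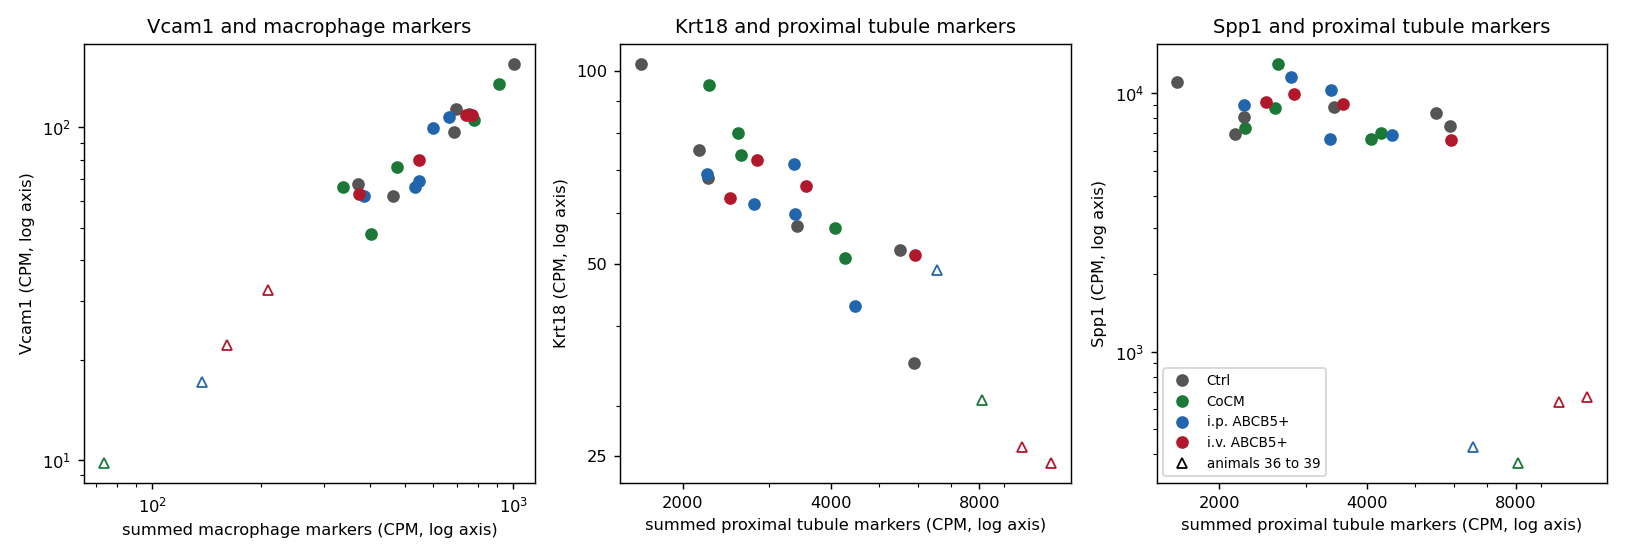
Vcam1 against 8 summed macrophage markers, and Krt18 and Spp1 against 6 summed proximal tubule markers (CPM, log axes), coloured by group with animals 36 to 39 as open triangles. Vcam1 rose along a line (r = 0.92 over the 20 filled points) and Krt18 fell (r = -0.86), while Spp1 had r = -0.46 and rho = -0.41, which did not pass after adjustment.

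The strongest relation in the other direction was Krt18 with proximal tubule markers (r = -0.86, rho = -0.85, permutation adjusted p = 0.0004 and 0.000533, r = -0.84 without the farthest 2). Lcn2 (r = -0.72, rho = -0.66), Clu (r = -0.69, rho = -0.58) and Vim (r = -0.69, rho = -0.62) were also lower where these transport genes were higher. Against distal convoluted tubule markers, Lcn2 (r = -0.70, rho = -0.66), Clu (r = -0.62, rho = -0.61) and Vcam1 (r = -0.73, rho = -0.73) passed with a negative sign. Spp1 had r = -0.46 and rho = -0.41 with the proximal tubule sum (permutation adjusted p = 0.136 and 0.203). With the distal convoluted tubule sum it had r = -0.62 and rho = -0.57 (permutation adjusted p = 0.0307 and 0.0535), which passed by r but not by rho. Neither Spp1 nor Havcr1 passed by both with any list. Immediate early genes, often read as a sign of how tissue was handled, rose with Lcn2 (r = 0.62, rho = 0.70), Krt8 (r = 0.59, rho = 0.64), Krt18 (r = 0.59, rho = 0.65) and Vim (r = 0.59, rho = 0.66), and their part in these levels was not tested. Sox9 ran against endothelial markers (r = -0.67, rho = -0.59), where r fell to -0.42 without the farthest 2.

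Of 11643 other genes, those whose pattern over the 20 animals was most like each marker were found by Spearman's rho, as a description without a test. They were Clec4a1 (rho = 0.96), Slamf9 (0.95) and C1s (0.94) for Vcam1, and Marcksl1 (0.91), Prcp (0.88) and Ccl2 (0.88) for Lcn2. For Clu they were Gprc5a (0.88), Tmem100 (0.83) and Upk3bl1 (0.83), and for Spp1 Ephb6 (0.82), Mta1 (0.81) and Tpbg (0.81). Havcr1 was closest to Pum3 (0.84), Timd2 (0.83) and Chrnb1 (0.77). Timd2 belongs to the same gene family as Havcr1, and reads shared between them were not examined.

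For the filament genes, the closest were Cdca4 (0.86), Adra1d (0.86) and Tsc22d1 (0.85) with Krt8, and Cdc42ep2 (0.93), Pced1b (0.89) and Shisa4 (0.88) with Krt18. Krt19 was closest to Gpr15lg (0.91), Lypd2 (0.90) and Slc39a7 (0.90), and Vim to Efemp2 (0.93), Tagln2 (0.92) and Anxa3 (0.91). Sox9 was closest to Syvn1 (0.86), Inava (0.86) and Tcap (0.84).

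Genes around these markers were read in 5 lists, and in the 6 comparisons 0 of their genes had an adjusted p under 0.05 in edgeR. Among 22 tested injury and repair genes, 2 had an unadjusted p under 0.05 in CoCM against Ctrl (1 higher, 1 lower), 0 in i.p. ABCB5+ kidneys and 1 in i.v. ABCB5+, beside 11.9%, 1.77% and 5.78% of all tested genes. Their median log2 fold changes were -0.20, -0.22 and -0.43, and -0.02, -0.06 and 0 without animals 36 to 39. Cdh6, a cadherin of the developing tubule, was at 18.7 ± 6.99 CPM in CoCM and 38.4 ± 12.7 in Ctrl (SD, n = 6), a log2 fold change of -1.04 ± 0.47 (edgeR adjusted p = 0.396). Gdf15, a secreted stress cytokine, was at 47.0 ± 7.63 CPM in i.p. ABCB5+ kidneys and 62.0 ± 7.58 in i.v. ABCB5+ (log2 fold change -0.40 ± 0.15, edgeR adjusted p = 1.0).

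Among 12 tested receptors and sheddases of the marker proteins, 4 had an unadjusted p under 0.05 in CoCM against Ctrl, 1 higher and 3 lower, beside 11.9% of all tested genes. In i.p. and i.v. ABCB5+ kidneys against Ctrl the counts were 0 and 1, beside 1.77% and 5.78%. Without animals 36 to 39, CoCM against Ctrl gave 6, beside 16.9%. Slc22a17, the receptor for the Lcn2 protein, was at 81.6 ± 3.48 CPM in CoCM and 67.2 ± 6.50 in Ctrl (log2 fold change 0.28 ± 0.08, edgeR adjusted p = 0.224, and 0.27 with adjusted p = 0.207 without animals 36 to 39). Adam10, a membrane protease that sheds surface proteins, was at 90.7 ± 11.6 CPM against 116.7 ± 10.6 (log2 fold change -0.36 ± 0.14, edgeR adjusted p = 0.363).

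Of 14 tested intermediate filament genes, Synm had a log2 fold change of -0.35 ± 0.13 and Sync of 0.43 ± 0.20 in CoCM against Ctrl (edgeR adjusted p = 0.353 and 0.406). Of 16 tested Sox and renal progenitor factors, Sox13 was at 0.49 ± 0.15 and Cited2 at 0.40 ± 0.13 in i.v. ABCB5+ against Ctrl (edgeR adjusted p = 0.673 each), and at 0.19 and 0.15 without animals 36 to 39.

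The 18 genes of the differentiated proximal tubule stood at a median log2 fold change of 0.85 against Ctrl in the i.v. ABCB5+ kidneys, all animals included, where 4 had an unadjusted p under 0.05 (all higher, beside 5.78% of all tested genes) and 0 an adjusted one, and of 0.03 without animals 36 to 39. In CoCM and i.p. ABCB5+ kidneys against Ctrl their median was 0.21 and 0.17, and -0.19 and -0.07 without these 4 animals. With all animals, 2 genes (both lower) and 0 genes had an unadjusted p under 0.05 there, beside 11.9% and 1.77%. Slc22a7, an organic anion transporter, was at 7.7 ± 10.6 CPM in i.v. ABCB5+ kidneys and 1.07 ± 1.5 in Ctrl (log2 fold change 2.84 ± 1.11, edgeR adjusted p = 0.673), and 0.42 without the 4. Slc5a12, a lactate transporter, was at 43.3 ± 21.2 CPM in CoCM and 90.9 ± 27.5 in Ctrl (log2 fold change -1.07 ± 0.36, edgeR adjusted p = 0.321, and -0.97 with adjusted p = 0.238 without the 4).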

How the data were processed

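RNA sequencing of the left kidney (BGISEQ-500) was analysed in 24 rats. According to the submitters' processing notes, Trim Galore 0.6.4, kallisto 0.4.6 and the build rn6 were used, while human gene models (an hg19 package) are cited in the methods of the study. The authors deposited estimated counts per Entrez gene, not normalized, and TPM values, which are scaled to transcript length and library total. Estimated counts were rounded. The files' 17334 identifiers were named from a RefSeq table of GRCr8, which held 17179. Whether animals shared a litter or day is not given.

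Genes were filtered with filterByExpr, scaled by TMM and fitted over all 24 animals with edgeR 4.0.16 (quasi-likelihood F-test, 1 mean per group, Benjamini-Hochberg over 12778 genes, threshold 0.05). The SE was the log2 fold change divided by the square root of F. Log2 CPM used a prior count of 2, and log2(TPM + 1) served as an alternative. Permutation tests used 100000 resamples. A floor of 3 counts was 0.322 CPM in the smallest library and covers counting error only. In simulated data for CoCM against Ctrl, edgeR recovered 91.5% of 200 genes changed 4-fold among 12778. This share does not say how often a 4-fold change in a marker would be called. Each marker varied more within groups than most tested genes, from 60.2% of them for Sox9 to 99.4% for Havcr1 (all 24 animals). DESeq2 1.42.0 and limma 3.58.1 (voom with quality weights, and log2 TPM) were alternatives.

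All 10 markers are named. Of each list, where no gene passed, the 2 genes with the smallest unadjusted p over 6 comparisons are named, and for each marker the 3 genes with the highest rho (average log2 CPM above 1). The markers and lists were chosen with earlier results of these data known.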

Additional observations from a re-analysis of the deposited data

Results flagged for a closer look

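Within the 40 sets formed by 10 genes and 4 groups, the gap between an extreme animal and its nearest neighbour, divided by the whole log2 CPM range in that group, passed Dixon's critical value of 0.625 for 6 animals in 12. Chance alone would give about 1 in 20, or 2.0 of 40. All 12 were low values of 2 animals, and genes of the same animal are not independent.

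In i.p. ABCB5+ animal 38, Havcr1 was at 4.85 CPM (the other 5 animals at 75.2 to 224.9), Lcn2 at 9.93 (85.6 to 172.7), Spp1 at 425.8 (6675.0 to 11554.6) and Clu at 226.9 CPM (1067.9 to 1734.8). In the same animal Vcam1 was at 17.2 CPM (62.1 to 107.4), Krt19 at 17.9 (80.4 to 157.8), Vim at 216.8 (541.2 to 757.1) and Sox9 at 73.8 CPM (140.8 to 204.3).

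In CoCM animal 39, Lcn2 was at 7.97 CPM (the other 5 at 100.1 to 258.6), Spp1 at 370.1 (6679.4 to 13004.0), Clu at 164.4 (1296.1 to 2184.1) and Krt8 at 138.3 CPM (260.3 to 366.3). The i.v. ABCB5+ group held a pair of low animals, 36 and 37, so the gap to the nearest neighbour was not large there.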

How the results depend on the processing

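The count of 0 markers called was the same in each of the 6 comparisons under all 8 other ways of fitting and with each of the 24 animals left out. With voom and sample quality weights, 2 genes of the pathway lists passed in CoCM against Ctrl, Slc22a17 (log2 fold change 0.33, adjusted p = 0.0275) and Slc5a12 (-1.34, adjusted p = 0.0492), where edgeR called 0. Over all genes in that comparison edgeR called 1, DESeq2 78 and voom 183, and none of the 10 markers was among them. The cause was not tested. Of the 45 pairs of markers, 13 passed in the treated animals alone, which is also a smaller sample (14 animals), against 21 in the main set. The other 81 group-level and 412 single-gene values from these alternatives stayed on the same side, as did the 144 and 1200 values with 1 animal left out.

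Directions were less stable than calls. Without animals 36 to 39, a choice the data led to, 5 of 10 fold changes had the other sign for CoCM against Ctrl, 2 for i.p. and 3 for i.v. ABCB5+, 6 between routes and 1 in CoCM against both cell groups. With CoCM animal 39 alone left out, 5 of 10 changed sign in CoCM against Ctrl, and with Ctrl animal 1 left out 4. With voom and sample quality weights over all animals, 7 of 10 changed sign between routes. In CoCM, i.p. and i.v. ABCB5+ against Ctrl that fit changed 2, 0 and 1, and 2 in CoCM against both cell groups. The within-group SD moved by over 1.5 times without the 4 animals for 8 of the 10 genes, all but Krt18 and Sox9. No paired analysis was possible because no animal number occurs in more than 1 group. With 6 animals a group, the SE was 0.37 to 0.75 for 7 of the 10 genes in these fits. Changes of that size were not detectable, and larger ones could also be missed. Vim in i.v. ABCB5+ against Ctrl, at -0.56 with an SE of 0.37, had an edgeR adjusted p of 0.674. The smallest change that could be detected was not determined.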

Other observations

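Of 22 other injury and repair genes, 15 had all 4 of these animals below the range of the other 20, and 0 had all above, while 14.2% of all tested genes lay below and 10% above. Cp, which encodes the copper carrier ceruloplasmin, was at 27.8 to 87.5 CPM there and 321.1 to 733.0 in the others. Cd44, a receptor for hyaluronan and osteopontin, was at 21.5 to 24 CPM against 121.7 to 199.2, and Timp1, an inhibitor of matrix proteases, at 11 to 14.3 CPM against 37 to 120.3. The other 7 overlapped, among them Prom1, at 117.5 to 215.1 CPM against 43 to 205.8.

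Of 18 genes of the differentiated proximal tubule, 6 had all 4 animals above the others and 0 below. The phosphate transporter Slc34a1 was at 4049.1 to 6610.3 CPM against 673.1 to 3114.1, and the organic anion transporter Slc22a6 at 970.1 to 1319.3 CPM against 132.7 to 653.3. The other 12 overlapped, among them the glucose transporter Slc5a2, at 81.8 to 294.3 CPM against 45.9 to 342.6, and Slc5a12, at 25.6 to 74.5 CPM against 20.2 to 213.7.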
